A study of Mus musculus with 4 samples.

Results

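The unfolded protein response (UPR) and the ATF4 response were followed through 40 genes in cultured mouse liver sinusoidal endothelial cells (LSECs), the fenestrated endothelium that lines the hepatic sinusoids. The genes were the rows of the deposited expression table whose symbol is on a list of ER stress and ATF4 response genes, 40 of 18373 genes in all. All 40 were found in the table. The list falls into 15 ER chaperones and folding enzymes, 4 genes of the stress sensors and their transcription factors (Ern1, Atf6, Eif2ak3 and Xbp1), 6 genes of ER-associated degradation (ERAD) and 15 genes of the ATF4 branch. The cells were primary LSECs from livers of 8-week-old Balb/c mice, isolated with CD146 beads, cultured for 24 h and then transfected for 48 h, so that they were on day 3 of culture. A group of 2 libraries received a negative control siRNA (NC) and a group of 2 libraries received siRNA against the long non-coding RNA Airn (siAirn), and no group had an ER stress inducer. The study describes 2 separate siRNAs against Airn, whereas both sample titles of the siAirn group carry the same siRNA number, so whether the 2 libraries received 1 siRNA or different ones is not settled. The sample titles call the libraries of a group biological replicates but do not say whether they came from separate animals or cultures, so the p-values measure the spread between these libraries.

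The ER is the site where secreted and membrane proteins fold. Unfolded proteins draw the chaperone BiP (Hspa5) away from 3 membrane sensors: ATF6 is cut to release a transcription factor, IRE1 (Ern1) splices Xbp1 mRNA, and PERK (Eif2ak3) phosphorylates eIF2alpha. The first 2 arms raise chaperones and ERAD genes. The third lowers general translation while favouring that of ATF4, which turns on genes of serine, glycine and asparagine synthesis, amino acid transport and the CHOP (Ddit3) program. ATF4 is also reached by other eIF2alpha kinases, among them that of amino acid shortage. Endothelial cells use the same arms, and LSECs carry a large load of secreted and scavenger proteins.

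The promoters of these genes hold known motifs, searched on both strands in the 250 bases before the start of each gene in the RefSeq promoter table (GRCm38.p6), which had an entry for 35 of the 40 genes. The ER stress response element (ERSE: CCAAT, 9 bases of any kind, then CCACG) was found in 9 genes: 7 of 13 chaperones, 2 of 5 ERAD genes and 0 of 14 ATF4 genes. It was present in 37 of 32851 promoters of the table, or 0.113%. The shares of all promoters count entries rather than genes, and they include the entries of these 35 genes. The related ERSE-II (ATTGG, 1 base, CCACG) was found in Herpud1 and in 0.0304% of all promoters. The C/EBP-ATF response element (CARE: TGATGNAA) was found in Asns, Chac1 and Herpud1 and in 3.45% of all promoters. TGACGTGG, a core of the UPR element bound by XBP1 and ATF6, was found in none of the 35 and in 0.563% of all promoters. These motifs share letters (ATTGG is CCAAT read on the opposite strand, and TGACGTGG ends in CCACG read so), but no match in these genes overlapped another. RefSeq places the starts of Hspa5 and Asns further in than GENCODE M21, so their windows lie inside the GENCODE gene spans. The windows below were chosen by the sign of the log2 fold change in the count fit, which differed between genes with the same motif (ERSE or CARE). None of the genes shown had an adjusted p under 0.05 by edgeR. For CARE a contrast was not resolved: Asns stood at 0.29 (SE 0.10) and Chac1 at -0.02 (SE 0.19). With a correction for GC content and length Chac1 stood at 0.18. The windows include, for comparison, the ERSE-II window of Herpud1, a gene that was level in the count fit. They are written 5′ to 3′ on the strand of the gene, with the fixed letters of the motif in capitals.
Hspa5, ERSE, chr2:34772020-34772048, plus strand: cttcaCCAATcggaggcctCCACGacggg
Hsp90b1, ERSE on the opposite strand, chr10:86705528-86705556, minus strand: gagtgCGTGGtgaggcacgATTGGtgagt
Calr, ERSE on the opposite strand, chr8:84847045-84847123, minus strand: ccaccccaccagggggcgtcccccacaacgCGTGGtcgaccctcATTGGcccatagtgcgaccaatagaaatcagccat
Creld2, ERSE on the opposite strand, chr15:88819490-88819568, plus strand: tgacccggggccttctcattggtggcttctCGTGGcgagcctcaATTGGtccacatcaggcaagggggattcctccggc
Syvn1, ERSE, chr19:6046502-6046575, plus strand: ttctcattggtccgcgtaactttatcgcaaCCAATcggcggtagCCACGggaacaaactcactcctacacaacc
Herpud1, ERSE-II, chr8:94386347-94386417, plus strand: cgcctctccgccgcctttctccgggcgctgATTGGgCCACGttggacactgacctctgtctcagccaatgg
Asns, CARE, chr6:7693220-7693237, minus strand: ccacaTGATGaAActtcc
Chac1, CARE on the opposite strand, chr2:119351019-119351086, plus strand: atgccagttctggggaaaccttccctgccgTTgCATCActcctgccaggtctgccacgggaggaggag

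The libraries held 17308382 to 18371959 estimated counts each from single-end reads of 50 bases. Values per library are given as CPM, counts divided by a library size that was scaled by the trimmed mean of M-values, and levels are compared between genes as FPKM, which is per length of transcript. Airn itself was at 7 and 3 counts in the NC libraries and at 11 and 9 counts in the libraries labelled siAirn, a ratio of 2.02 with a 95% interval of 0.903 to 4.83 (exact binomial, counting error only). A lower level of the target was thus not seen where the labels place its silencing, and the directions below are those of the libraries as labelled. Across the table, edgeR's quasi-likelihood test called 2294 of 13628 tested genes (16.8%) at an adjusted p under 0.05, with 8.27% of genes called higher and 8.56% called lower. Markers of cell types differed between the groups in some lists and not in others. Of 10 LSEC markers 9 were called lower (summed level 3725 and 3747 CPM in NC, 2621 and 2372 CPM in siAirn; Oit3 the most abundant), of 10 pan-endothelial markers 7 were called lower (10763 and 10245 against 7806 and 6840 CPM; Eng), and of 11 tested macrophage markers 7 were called lower (243 and 310 against 186 and 156 CPM; Lyz2). Of 12 stellate cell and fibroblast markers 4 were called higher (1732 and 2100 against 2023 and 2620 CPM; Tagln), of 11 hepatocyte markers 2 were called higher (654 and 829 against 914 and 1191 CPM; Alb), and of 8 plasma and B cell markers 0 were called, with 1 at an unadjusted p under 0.05 by edgeR (31.0 and 27.6 against 39.2 and 30.5 CPM; Jchain). No marker of these lists was at 0 in all libraries. All of these cell types use the ER genes studied here, so the part of cell mixture in the values below was not tested, and fewer cells of a type cannot be told apart from less RNA per cell in bulk samples.

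Calr, the calcium-binding lectin chaperone calreticulin, had the highest level at 673 ± 1.73 FPKM (SD, n = 2) in the NC libraries and ranked 120th of the 13628 genes tested. Hspa5 followed at 502 ± 1.79 FPKM, then the disulfide isomerase Pdia3 at 424 ± 5.02 FPKM, then Atf4 at 387 ± 7.21 FPKM, P4hb at 378 ± 1.64 FPKM and the ER HSP90 Hsp90b1 at 374 ± 2.28 FPKM. P4hb and Hsp90b1 differed by little more than their spread, whereas Calr, Hspa5 and Pdia3 were set apart by far more. In all, 12 of the 40 genes were above 100 FPKM in the NC libraries. In the sensor branch, Xbp1 was at 65.8 ± 0.757, Atf6 at 18.9 ± 1.62, Eif2ak3 at 7.84 ± 0.552 and Ern1 at 7.83 ± 0.205 FPKM, the last pair within their spread. Derl3, a derlin that is typical of secretory cells, was the lowest of the 40 at 1.80 ± 0.481 FPKM.

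**Figure D1:**
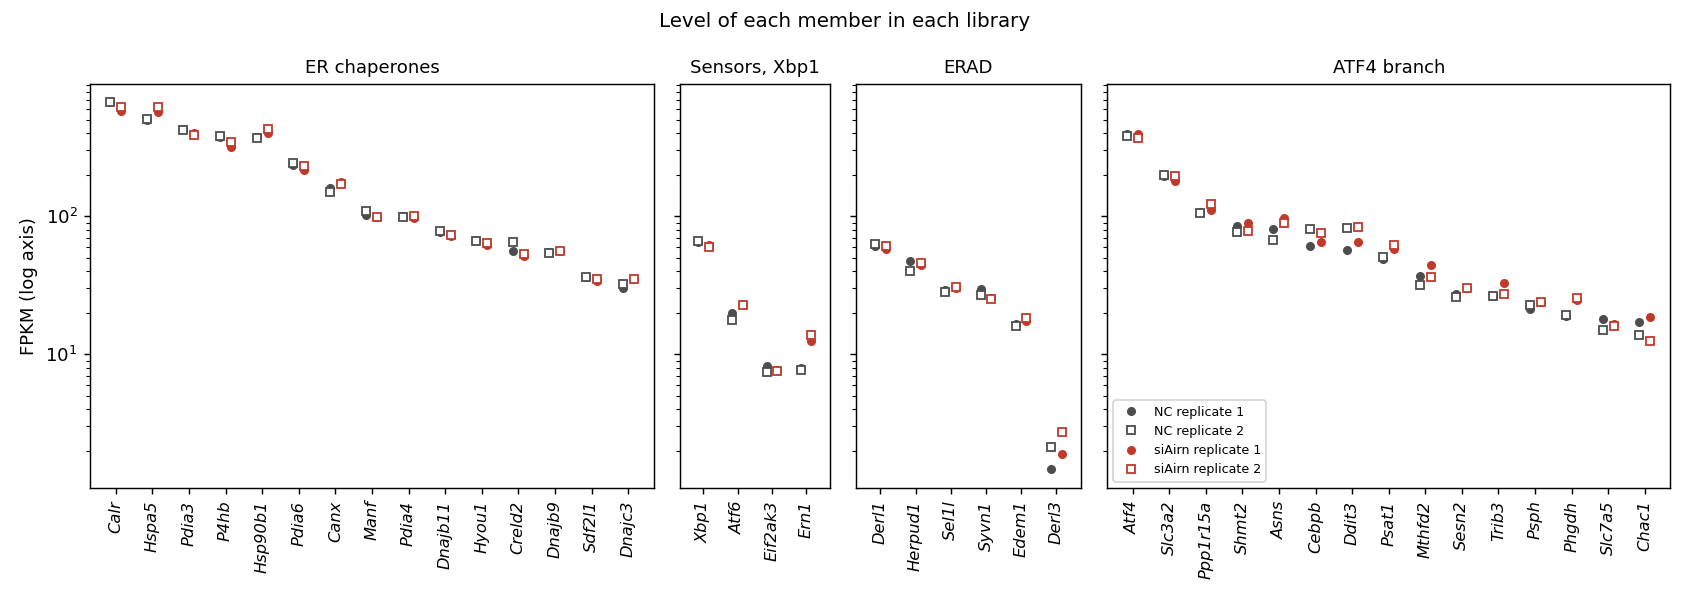
Level of each of the 40 genes in FPKM (log axis), by branch and ordered by the NC mean. Grey symbols are NC libraries and red symbols siAirn libraries, with filled circles for replicate 1 and open squares for replicate 2. Chaperones span 31.3 (Dnajc3) to 673 FPKM (Calr) in the NC mean, and Derl3 lies lowest.

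All 40 genes passed the filter on low counts. Only 2 of the 40 were called, Ern1 and Phgdh, both higher in siAirn, against 16.8% of all genes tested. At an unadjusted p under 0.05 there were 12 of the 40 (5 higher, 7 lower), where 34% of all genes had such a p. No member passed the rule of an unadjusted p under 0.05 with a fold change over 1.4, which is the rule stated in the study and which 9.96% of all genes passed. The groups did not overlap for 26 of the 40 genes (12 higher, 14 lower), close to the 62.7% of all genes with that property. In this fit on counts the largest difference was 1.27-fold, the median absolute log2 fold change was 0.13 against 0.20 over all genes, and 26.8% of all genes had a larger difference than any member. For 37 of the 40 genes the 95% interval of the difference lay wholly within 1.4-fold either way, which held for 49.7% of all genes. The exceptions were Derl3, Asns and Phgdh. Larger differences came from other measures: Ern1 had a log2 fold change of 0.68 on FPKM, and Phgdh and Derl3 had 0.54 each with the correction for GC content and length described further on, where Derl3 was not called.

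**Figure D2:**
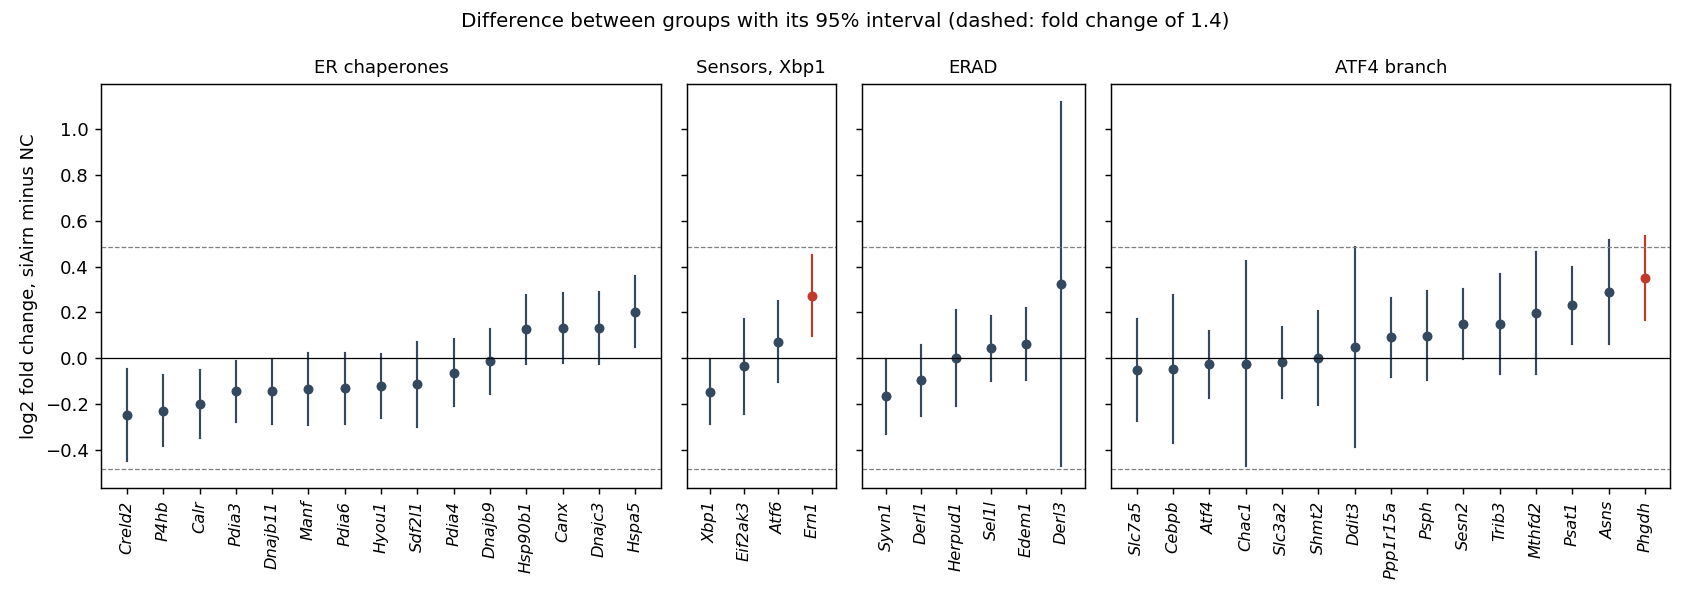
Log2 fold change (siAirn minus NC) of each gene with its 95% interval from edgeR's quasi-likelihood fit, by branch. Red marks the 2 called genes, Ern1 and Phgdh, and dashed lines mark a fold change of 1.4. The points run from -0.25 (Creld2) to 0.35 (Phgdh), and the Derl3 interval is the widest.

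Within the chaperone branch, 11 genes were lower and 4 higher in siAirn, and none was called by edgeR. 6 of the 15 had an unadjusted p under 0.05 (1 higher, 5 lower), near the 34% of all genes, and DESeq2, which called 13.2% of all genes, called P4hb alone (adjusted p = 0.035). The median log2 fold change was -0.12, against 0.0013 over all genes, and -0.051 with correction for GC content and length. The groups did not overlap for any of the 15 genes, where 62.7% of all genes were so placed. The median of the 15 genes relative to the NC mean was -0.14 in siAirn replicate 1 and -0.08 in siAirn replicate 2 on the log2 CPM scale, with the NC libraries at -0.01 and 0.01. When the replicate number was added as a block, edgeR called Hspa5 higher and Calr, Pdia3, P4hb, Dnajb11 and Creld2 lower. That fit called 35.5% of all genes, and nothing in the labels pairs the libraries by number.

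Hspa5, which encodes BiP, the main ER HSP70 and the usual reporter of the UPR (mouse chromosome 2, 34771970 to 34777547 in GENCODE M21, GRCm38), stood at 1227 and 1238 CPM in NC and at 1356 and 1481 CPM in siAirn. Both siAirn libraries were above both NC libraries. The log2 fold change was 0.20 (SE 0.06, 95% interval 0.05 to 0.36), and edgeR did not call it (adjusted p = 0.0732). The Hspa5 value ran from 0.14 to 0.26 as single libraries were left out. Under the GC and length correction it was 0.14 (edgeR adjusted p = 0.182). Hsp90b1 (GRP94), the ER HSP90, moved less, from 1002 and 997 CPM to 1048 and 1133 CPM, a log2 fold change of 0.13 (SE 0.06, edgeR adjusted p = 0.21). Its exons overlap genes on the opposite strand over 10.3% and on the same strand over 5.38% of their bases. The remaining genes above NC were the membrane lectin chaperone Canx (682 and 634 against 733 and 708 CPM) and Dnajc3, the inhibitor p58IPK of PERK (154 and 167 against 175 and 177 CPM), at 0.13 each. With correction for GC content and length Hsp90b1 stood at 0.046, Canx at 0.0056 and Dnajc3 at -0.034, and without siAirn replicate 2 Hsp90b1 stood at 0.068. As single libraries were left out, Canx ran from 0.077 to 0.18 and Dnajc3 from 0.0735 to 0.19.

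The other 11 genes were below NC. P4hb, a disulfide isomerase that also serves collagen prolyl hydroxylase (chromosome 11, 120560298 to 120573253), stood at 922 and 931 CPM in NC and at 756 and 825 CPM in siAirn. The siAirn libraries were both lower, and the log2 fold change was -0.23 (SE 0.07, 95% interval -0.38 to -0.07, edgeR adjusted p = 0.0554). Besides DESeq2, the likelihood-ratio test, which called 23% of all genes, called it. Limma on log2(FPKM + 1) did not (adjusted p = 0.0985). P4hb stood at -0.13 under the GC and length correction (edgeR adjusted p = 0.206). Its value ran from -0.29 to -0.17 as single libraries were left out. Calr (chromosome 8, 84841850 to 84846934) stood at 1243 and 1243 CPM against 1039 and 1126 CPM, a log2 fold change of -0.20 (SE 0.06, edgeR adjusted p = 0.0724). Creld2, a secreted ER stress-induced disulfide isomerase, had the most negative value of the 40 genes in this fit at -0.25 (SE 0.09, edgeR adjusted p = 0.0895), with 71.1 and 82.0 CPM in NC and 63.2 and 65.9 CPM in siAirn. For this gene the NC libraries lay far apart. Its value was -0.14 without NC replicate 2 and -0.051 with correction for GC content and length. Pdia3, the partner of calnexin and calreticulin, and Dnajb11, a BiP co-chaperone, were lower by the same amount (-0.14 each), at 1092 and 1078 against 989 and 974 CPM and at 147 and 149 against 133 and 136 CPM. Pdia3 stood at -0.16 and Dnajb11 at -0.081 with correction for GC content and length. Manf, Pdia6, Hyou1, Sdf2l1 and Pdia4 ranged from -0.13 to -0.06 in the count fit with unadjusted p above 0.05. Dnajb9 (ERdj4), a co-chaperone that is a classical target of XBP1, was nearly level at 99.2 and 98.7 against 97.7 and 98.4 CPM (log2 fold change -0.01, 95% interval -0.16 to 0.13).

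The chaperones on either side of NC can also be set against each other. The FPKM ratio of Hspa5 to Calr was 0.743 and 0.750 in the NC libraries and 0.982 and 0.991 in the siAirn libraries. That of Hspa5 to P4hb was 1.33 in both NC libraries and 1.79 in both siAirn libraries. These pairs were chosen after their values were seen, so they are a description and were not tested. With correction for GC content and length the log2 fold changes were 0.14 for Hspa5, -0.13 for Calr and -0.13 for P4hb, closer together than without it, and none of the 3 was called by edgeR with it. By contrast the ratio of Hspa5 to Hsp90b1 was 1.33 and 1.35 against 1.41 and 1.42, a smaller distance.

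Genes with an ERSE in the window did not share a sign in the count fit. Of the 9, 5 were higher and 4 lower in siAirn, from -0.25 (Creld2) to 0.32 (Derl3) in log2 fold change. None of the 9 was called by edgeR, with adjusted p from 0.0724 (Calr) to 0.535 (Derl3). The directions are thus signs of uncalled values, and the value of Derl3 was not resolved (SE 0.34). Hspa5, Hsp90b1, Canx and Dnajc3, the 4 chaperones above NC in the count fit, held the motif, as did Calr, Pdia6 and Creld2 below NC. Under the GC and length correction Dnajc3 stood below NC, as given above, and Sdf2l1, with no match, stood above it at 0.11. The Herpud1 gene, with the ERSE-II shown above, was level in the count fit and stood at 0.14 under that correction.

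Among the sensors, Ern1 was called higher. Ern1 encodes IRE1alpha, the kinase and endoribonuclease of the UPR (chromosome 11, 106394650 to 106487852), and stood at 109 and 107 CPM in NC and at 123 and 138 CPM in siAirn. Both siAirn libraries were above NC, the log2 fold change was 0.27 (SE 0.07, 95% interval 0.10 to 0.45), and the edgeR adjusted p was 0.0489. The call was lost with upper-quartile scaling (adjusted p = 0.0552), with no filter on low counts (0.0671), with correction for GC content and length (log2 fold change 0.13, adjusted p = 0.251), and without NC replicate 1 (0.175), NC replicate 2 (0.229) or siAirn replicate 2 (0.211). The FPKM column gave Ern1 a larger difference, 7.97 and 7.68 in NC against 12.4 and 13.8 in siAirn, a log2 fold change of 0.68 by limma on log2(FPKM + 1). The transcript length implied by the ratio of count to FPKM was shorter in the siAirn libraries, at 0.735 and 0.729 relative to the NC mean, with the NC libraries at 0.991 and 1.01. A shift of more than 1.2-fold in this implied length was seen in 1 of the 40 genes and in 85 of 11566 genes (0.735%). The deposited table holds no isoforms, so which transcripts of Ern1 differed was not analysed here.

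Atf6, the membrane-bound transcription factor of the second arm, was at 148 and 131 CPM in NC and at 147 and 146 CPM in siAirn. The groups overlapped in counts (log2 fold change 0.07, 95% interval -0.10 to 0.25), but not in FPKM, at 20.1 and 17.8 against 22.9 and 22.7, and its implied length was 0.889 and 0.881 in siAirn relative to the NC mean. No other member except Ern1 had an implied length that moved by more than 1.06-fold. Eif2ak3, which encodes PERK, was level at 34.3 and 31.1 against 32.5 and 31.4 CPM (log2 fold change -0.03, 95% interval -0.24 to 0.17). Xbp1, the transcript that IRE1 splices, was slightly lower at 143 and 146 against 132 and 130 CPM, with a log2 fold change of -0.15 (SE 0.06, edgeR adjusted p = 0.138), or -0.018 with correction for GC content and length. Counts per gene sum the spliced and unspliced forms of Xbp1, so splicing was not measured. The median of the 4 genes was 0.02.

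**Figure D3:**
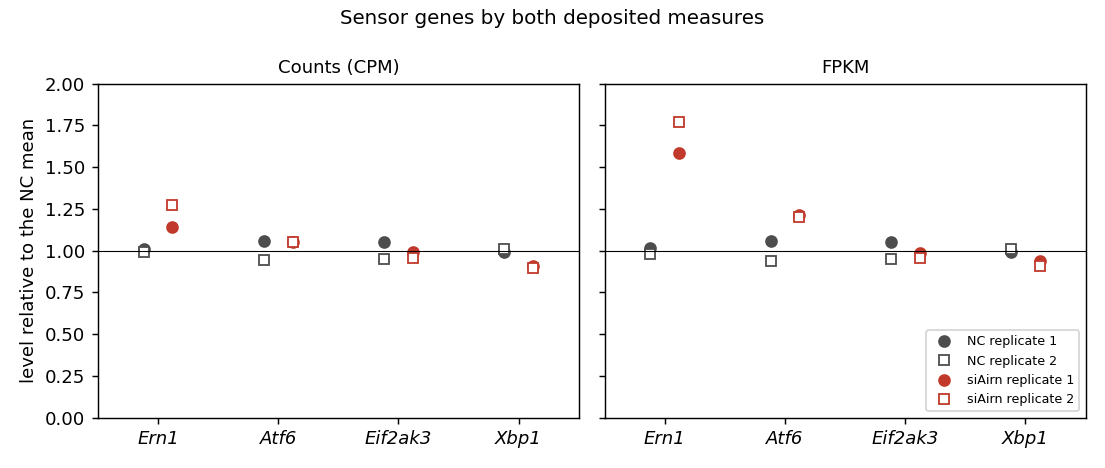
Ern1, Atf6, Eif2ak3 and Xbp1 in each library relative to the NC mean, from counts (CPM, left) and from FPKM (right). Grey is NC and red siAirn, with circles for replicate 1 and squares for replicate 2. The siAirn values of Ern1 are 123 and 138 CPM against 109 and 107 in NC, and the gap is wider in FPKM (12.4 and 13.8 against 7.97 and 7.68).

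No ERAD gene was called by edgeR or DESeq2, which called 16.8% and 13.2% of all genes. DESeq2 gave no adjusted p to 2114 genes, Derl3 among them, and these count here as not called. By edgeR 1 of 6 had an unadjusted p under 0.05, where 34% of all genes had such a p. That gene was Syvn1, the HRD1 ubiquitin ligase of the ER membrane, at 89.1 and 82.1 CPM in NC and 76.6 and 75.9 CPM in siAirn. Its log2 fold change was -0.17 (SE 0.07, edgeR adjusted p = 0.139), or -0.091 with correction for GC content and length. As single libraries were left out, Syvn1 ran from -0.23 to -0.11. Its adaptor Sel1l was level, at 181 and 176 against 181 and 186 CPM (0.04, 95% interval -0.10 to 0.19). Herpud1, a scaffold of the same complex that is strongly induced by ER stress, was at 84.9 and 72.4 against 77.2 and 80.1 CPM, a log2 fold change of 0.00 (95% interval -0.21 to 0.21). The NC libraries of Herpud1 enclosed both siAirn libraries. Edem1, a lectin that hands over misfolded glycoproteins, was at 101 and 95.6 against 101 and 105 CPM (0.06), and Derl1, a derlin of the retrotranslocation channel, at 186 and 193 against 171 and 183 CPM (-0.10). Derl3 had 30.3 and 48.8 counts in NC and 40.6 and 59.0 counts in siAirn. At this depth its difference was not resolved (log2 fold change 0.32, 95% interval -0.47 to 1.12). The value of Derl3 ran from 0.021 to 0.67 as single libraries were left out. The groups did not overlap for 3 of the 6 genes, where 62.7% of all genes were so placed, and the median log2 fold change was 0.02. Under the GC and length correction the median was -0.089. Herpud1 then stood at 0.14, Edem1 at -0.12 and Sel1l at -0.13, none of them called without a replicate block.

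In the ATF4 branch 10 of 15 genes were higher and 5 lower, with a median log2 fold change of 0.09. With correction for GC content and length 15 of 15 were higher, with a median of 0.19. The median relative to the NC mean was 0.10 in siAirn replicate 1 and 0.08 in siAirn replicate 2 on the log2 CPM scale. 1 gene was called by edgeR and 3 had an unadjusted p under 0.05, all higher, both smaller shares than the 16.8% and 34% of all genes. The groups did not overlap for 6 of the 15 genes, all higher in siAirn, a smaller share than the 62.7% of all genes.

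Phgdh was the called gene of this branch. Phgdh, the first enzyme of serine synthesis (chromosome 3, 98313170 to 98339990), stood at 33.7 and 34.3 CPM in NC and at 42.2 and 44.5 CPM in siAirn. The log2 fold change was 0.35 (SE 0.08, 95% interval 0.17 to 0.53, edgeR adjusted p = 0.0265), the largest of the 40 genes in this fit, and 0.54 once GC content and length were corrected for (adjusted p = 0.0129 by edgeR). DESeq2 did not call it (adjusted p = 0.0542), and edgeR did not without NC replicate 1 (0.135), NC replicate 2 (0.145) or siAirn replicate 2 (0.0841). Of the 50-base windows of Phgdh transcripts 63.1% are also found in other annotated genes, so its counts depend on how such reads were assigned. The next enzyme, Psat1, stood at 101 and 106 against 117 and 127 CPM (0.23, SE 0.07, edgeR adjusted p = 0.0656), and Psph, the last, at 30.1 and 32.1 against 33.2 and 33.4 CPM (0.10, SE 0.08, edgeR adjusted p = 0.434), with 10.4% of the exonic bases of Psph under a gene on the opposite strand. Asns, asparagine synthetase, stood at 148 and 124 against 173 and 159 CPM (0.29, SE 0.10, edgeR adjusted p = 0.0809), a value that ran from 0.17 to 0.42 as single libraries were left out. For these 4 genes both siAirn libraries were above both NC libraries. The mitochondrial folate enzyme Mthfd2 stood at 72.7 and 63.2 against 85.4 and 70.2 CPM, with groups that overlapped (0.20, SE 0.11, with a range of 0.048 to 0.33 as single libraries were left out), and Shmt2, which makes mitochondrial glycine from serine, was level at 187 and 168 against 189 and 166 CPM (0.00, 95% interval -0.20 to 0.21).

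Atf4 mRNA was level at 607 and 592 CPM in NC and 605 and 572 CPM in siAirn (log2 fold change -0.03, 95% interval -0.17 to 0.12). ATF4 is controlled largely at translation, which was not measured. Ddit3, the pro-apoptotic factor CHOP, was at 45.3 and 65.2 CPM in NC and at 49.8 and 64.6 CPM in siAirn. The replicates of Ddit3 differed far more than the groups (0.05, 95% interval -0.39 to 0.48). The same held for Chac1, a glutathione-degrading enzyme and sensitive ATF4 target, at 25.0 and 20.3 against 26.4 and 18.03 CPM (-0.02, 95% interval -0.47 to 0.43), and for Cebpb, a partner of ATF4, at 86.9 and 114 against 89.3 and 105 CPM (-0.05). Cebpb exons overlap a gene on the opposite strand over 20.7% of their bases. Ddit3 and Cebpb were higher in replicate 2 of both groups, and Chac1, Asns, Mthfd2 and Shmt2 were higher in replicate 1 of both groups. In all, the replicates of 16 of the 40 genes lay further apart in a group than the group means did.

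Trib3, a pseudokinase that restrains ATF4 and CHOP, was at 51.9 and 51.5 against 62.1 and 52.6 CPM (0.15, SE 0.09). The distance was carried by siAirn replicate 1, with a value of 0.023 without it and 0.26 without siAirn replicate 2. Once GC content and length were corrected for, Trib3 stood at 0.33 (adjusted p = 0.0742 by edgeR). Sesn2, a stress sestrin that restrains mTORC1, was at 69.8 and 67.2 against 75.3 and 76.5 CPM (0.15, SE 0.06, edgeR adjusted p = 0.152). With correction for GC content and length its log2 fold change was 0.27 and it was called (adjusted p = 0.047). Ppp1r15a (GADD34), which directs the dephosphorylation of eIF2alpha, was at 241 and 237 against 240 and 269 CPM (0.09). Its value was 0.0061 without siAirn replicate 2, 0.17 without siAirn replicate 1 and 0.21 with the GC and length correction. The transporter chains were level: Slc7a5 (LAT1) at 61.5 and 51.8 against 55.5 and 53.8 CPM (-0.05) and its heavy chain Slc3a2 (CD98) at 412 and 412 against 391 and 423 CPM (-0.02).

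**Figure D4:**
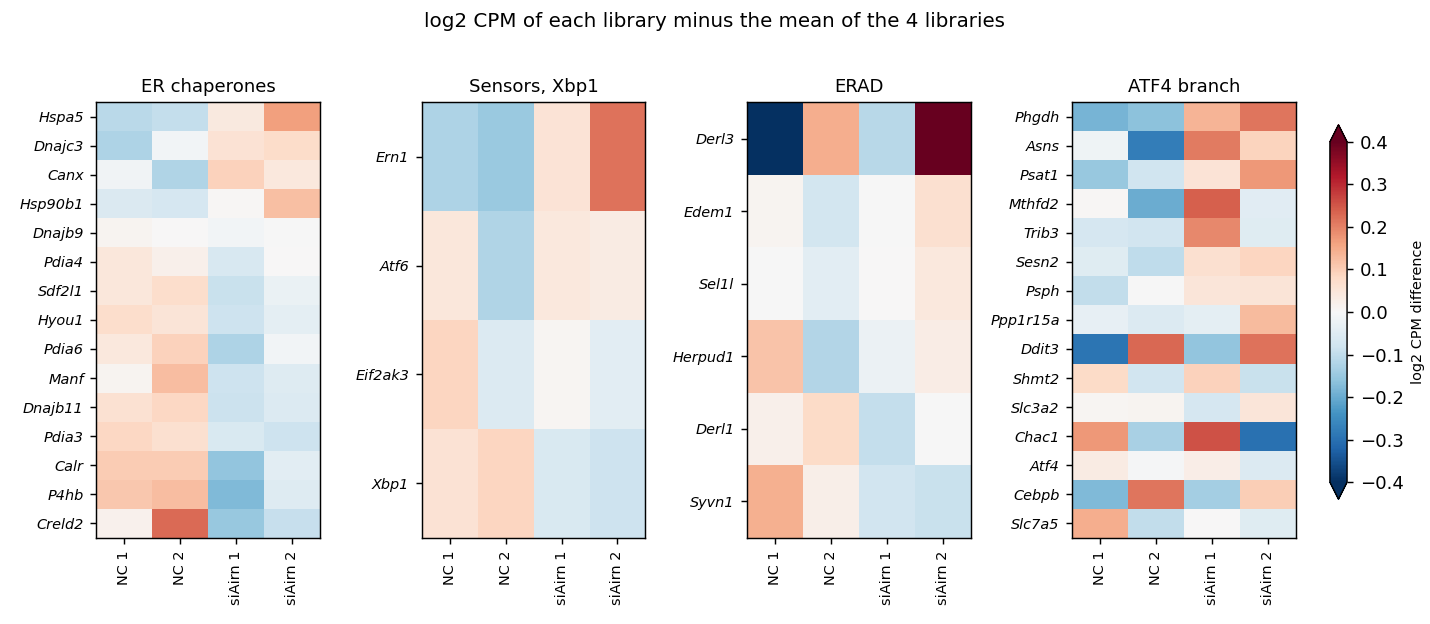
Log2 CPM of each gene in each library minus its mean over the 4 libraries, by branch, with red above and blue below that mean and the scale ending at 0.4 either way. Most chaperone rows split by group, whereas Ddit3, Cebpb and Chac1 split by replicate number (Ddit3 at 45.3 and 49.8 CPM in replicate 1 and at 65.2 and 64.6 CPM in replicate 2).

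The log2 fold changes of all genes were related to base composition and length: Spearman's rho across genes was -0.333 with the GC content and 0.364 with the length of the transcript, a description over genes that share the same 4 libraries. The median GC content was 55.7% in the ATF4 branch, 48.9% in the chaperones and 49.7% over all genes. With both corrected for, 1024 of 12905 genes were called, of which 35.5% were higher, against 49.1% of calls without the correction. The branch medians then became 0.19 (ATF4), -0.05 (chaperones), -0.09 (ERAD) and -0.03 (sensors), so the ATF4 branch lay further above NC, the chaperones closer to it, and the ERAD and sensor medians changed sign. Atf4 then stood at 0.14 and Atf6 at -0.15, neither of them called without a replicate block.

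Further genes of the same pathways were taken from 3 lists. Of 38 other genes of ER folding, translocation and glycosylation, 8 were called (2 higher, 6 lower), near the 16.8% of all genes, and the median log2 fold change was -0.11. With correction for GC content and length 7 were called, all lower, where 7.93% of all genes were called and 64.5% of those calls were lower. Fits without NC replicate 1 or NC replicate 2 called almost no gene of the whole table. The lack of calls in the 3 lists there is thus not particular to the lists. Sec11c, a catalytic subunit of signal peptidase, was at 17.7 and 20.5 against 13.2 and 13.9 CPM (-0.50, edgeR adjusted p = 0.0317), a call that was lost with DESeq2 and without siAirn replicate 1. Atf6b, a relative of Atf6, was at 113 and 113 against 82.8 and 81.7 CPM (-0.45, adjusted p = 0.00819 by edgeR), and Rpn2, a subunit of the oligosaccharyltransferase, at 392.3 and 390.1 against 291 and 301 CPM (-0.40, edgeR adjusted p = 0.01). Mbtps2, the site-2 protease that cuts ATF6 in the Golgi, was higher, at 40.1 and 38.8 against 51.0 and 58.5 CPM (0.47, edgeR adjusted p = 0.0179), a call that was lost with the GC and length correction.

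Of 21 tested ERAD genes outside the 40, 4 were called (1 higher, 3 lower), near the 16.8% of all genes, with a median of -0.06. Edem2, which trims mannose from misfolded glycoproteins, was at 61.2 and 60.4 against 41.7 and 42.2 CPM (-0.53, edgeR adjusted p = 0.00753). Aup1, which recruits a ubiquitin-conjugating enzyme, was at 156 and 165 against 116 and 115 CPM (-0.48), and the lectin Os9 at 191 and 194 against 150 and 139 CPM (-0.41). Edem3, a relative of Edem2, was higher at 69.2 and 59.9 against 82.8 and 84.5 CPM (0.37, edgeR adjusted p = 0.0275). The Edem3 call was lost with the GC and length correction and without siAirn replicate 2, whereas Edem2, Aup1 and Os9 were called in both of these.

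Of 46 tested genes of the eIF2alpha and ATF4 pathway outside the 40, 5 were called (3 higher, 2 lower), a smaller share than the 16.8% of all genes, 32 were above NC, and the median was 0.08. With correction for GC content and length 4 were called, all higher (Atf5, Aldh18a1, Slc7a1 and Slc1a4), near the 7.93% of all genes under that correction. The neutral amino acid transporter Slc1a4 was higher at 26.4 and 20.9 against 34.1 and 31.8 CPM (0.48, edgeR adjusted p = 0.0409), a call that was lost with no filter on counts, with limma on FPKM and without siAirn replicate 1. Aldh18a1, which starts proline synthesis from glutamate, was higher at 211 and 195 against 267 and 280 CPM (0.43, edgeR adjusted p = 0.0122), and Slc7a1, the cationic amino acid transporter CAT1, at 145 and 136 against 181 and 192 CPM (0.41, edgeR adjusted p = 0.0132). Eif2b2, a subunit of the exchange factor that phosphorylated eIF2alpha blocks, was lower at 140 and 141 against 117 and 116 CPM (-0.28, edgeR adjusted p = 0.0254), a call that was lost with that correction and without siAirn replicate 1 or siAirn replicate 2. Stc2 and Fgf21 of that list did not pass the filter on low counts.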

How the data were processed

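Total RNA was isolated with Trizol and sequenced on a BGISEQ-500, and a selection of polyadenylated RNA is not given in the sources used here. The authors deposited 1 table with estimated counts per gene (76.5% to 76.8% whole numbers) and a second measure read here as FPKM, both per library. The submitters' processing notes name RSEM, Bowtie2, BWA and hg19 with no role; the build of this mouse table and the strand setting are not given in the sources used here. The authors' group means were not used. The 40 genes and all lists were chosen with earlier results of these data known. Named are all 40 genes, Airn, up to 4 called genes with the largest change in each further list, and the most abundant gene of each marker list.

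Counts were rounded and tested with edgeR 4.0.16 (trimmed mean of M-values, factors 0.985 to 1.02; filterByExpr; quasi-likelihood; Benjamini-Hochberg over 13628 genes; common biological coefficient of variation 0.0754) in R 4.3.3. An adjusted p under 0.05 was called. The fit was tested on simulated data. Alternatives used DESeq2 1.42.0, limma 3.58.1 on log2(FPKM + 1) or log2(FPKM + 0.1), other filters and scaling, a correction for GC content and length (12905 genes), a replicate block, and each library left out. Overlaps and shared windows came from GENCODE M21, promoters from RefSeq. A comparison of protein sequences was not run.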

Additional observations from a re-analysis of the deposited data

How the results depend on the processing

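The number of called members was 2 with edgeR and with DESeq2, 1 with upper-quartile scaling or no filter, 5 with the likelihood-ratio test, and 0 by the study's rule or by limma with no filter on FPKM, which called 0 genes in all. Of all genes DESeq2 called 13.2%, upper-quartile scaling 16.8%, no filter 11.4% and the likelihood-ratio test 23%. The share was 14.9% for limma on log2(FPKM + 1) and 15% for limma on log2(FPKM + 0.1). By branch, DESeq2 called 1 chaperone, 1 sensor and 0 ATF4 genes. The likelihood-ratio test called 1 chaperone and 3 ATF4 genes, limma 2 ATF4 genes, and the study's rule 0 of either. Upper-quartile scaling, no filter on counts and no filter on FPKM left 0 sensors, and no filter on FPKM 0 ATF4 genes. The study's rule called 1358 genes, with 1, 1 and 2 in the further folding, ERAD and ATF4 lists, where limma with no filter called 0. On FPKM the chaperone median was -0.085 or -0.086 and the sensor median 0.11 or 0.12, and Dnajb9 turned to 0.035 or 0.036. Correction for GC content and length called 1024 genes, 2 ATF4 genes and 0 sensors, and turned Atf4 to 0.14, Cebpb to 0.19, Chac1 to 0.18, Slc3a2 to 0.075, Slc7a5 to 0.047, Sdf2l1 to 0.11, Atf6 to -0.15, Dnajc3 to -0.034, Edem1 to -0.12 and Sel1l to -0.13, none called, with branch medians of 0.19 (ATF4), -0.051 (chaperones), -0.089 (ERAD) and -0.035 (sensors). The cause of these changes was not tested.

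Samples with the same replicate number correlated at 0.233 in their deviations from the group means, over 2 pairs only, and nothing in the labels pairs them. A replicate block called 4841 genes and 13 members: 6 chaperones, 2 sensors, 1 ERAD and 4 ATF4 genes. Outside the chaperones these were Ern1, Xbp1, Syvn1, Asns, Psat1, Phgdh and Mthfd2. The block called 17, 8 and 16 genes in the further folding, ERAD and ATF4 lists. The replicate block with the GC and length correction called 4070 genes and 17 members (31.5% of all genes, against 35.5% with the block alone). These were 5 chaperones, Atf6 and Sel1l, both lower, and 10 ATF4 genes, all higher, with 16, 7 and 16 genes in the further lists and with Ern1 not called. Medians were 0.20 (ATF4), -0.050 (chaperones), -0.089 (ERAD) and -0.035 (sensors). Under it the same genes turned sign, of which Atf4, Cebpb, Atf6 and Sel1l were called: Atf4 0.14, Cebpb 0.20, Chac1 0.17, Slc3a2 0.074, Slc7a5 0.049, Sdf2l1 0.11, Atf6 -0.15, Dnajc3 -0.033, Edem1 -0.12 and Sel1l -0.13.

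Leaving out each library in turn, with the lone library assumed to vary like the other group, called 0 to 2410 genes (40 without NC replicate 1, 0 without NC replicate 2) and 0 to 3 members: 0 to 1 each of the chaperones, sensors and ATF4 genes. It called 0 to 5 further folding genes, 0 to 4 ERAD and 0 to 5 ATF4 genes. The chaperone median ran from -0.14 to -0.084 and the sensor median from -0.059 to 0.095. The ERAD median ran from -0.025 to 0.052. Genes whose values fell on both sides of 0 were Herpud1 (-0.11 to 0.12), Shmt2 (-0.093 to 0.090), Atf4 (-0.069 to 0.013), Atf6 (-0.011 to 0.16), Cebpb (-0.23 to 0.16), Chac1 (-0.33 to 0.23), Ddit3 (-0.19 to 0.33), Eif2ak3 (-0.11 to 0.034), Slc3a2 (-0.077 to 0.037) and Slc7a5 (-0.17 to 0.073). The Airn ratio ran from 1.4 to 3.47. Depth limits Airn and Derl3.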
